A study of Mus musculus with 12 samples.

Results

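The genes described here take part in efferocytosis, the removal of dying cells by phagocytes, or encode scavenger receptors. They are 10 of the 47643 genes in the count table, chosen by name for these roles with earlier results of these data known. The receptors for apoptotic cells were *Mertk* and *Megf10*, the bridging ligands *Gas6* and *Pros1*, and the engulfment machinery *Elmo1* and *Dock2*. The scavenger receptors were *Lrp1*, *Scarb1*, *Cd36* and *Msr1*. The samples came from the brains of 5 old male mice of the genotype p16-3MR on a C57BL/6 background, aged 113, 115, 116, 116 and 116 weeks (mice 1 to 5). No treatment is given for these mice. Their 3MR transgene reports activity of the p16 promoter by red fluorescence. Viable cells of each brain were sorted into a population of low fluorescence, RFPneg, and a population of high fluorescence, RFPpos, called RFPLow and RFPHigh in the text of the study, and RNA of each population was sequenced in bulk. The gate was set on the reporter and not on a cell type, so each sample could hold several cell types.

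Phagocytes recognise a dying cell by phosphatidylserine on its surface, either directly or through soluble bridging proteins that bind it and dock onto receptors such as MERTK. Receptor signals reach ELMO and DOCK proteins, which activate the small GTPase RAC and remodel the actin skeleton around the target. In the brain this work is done mainly by microglia, with astrocytes also clearing debris and synapses, and scavenger receptors take up modified lipoproteins and other debris.

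The libraries held between 177287 and 415834 counts on genes in the RFPneg samples (median 248471) and between 222560 and 289713 in the RFPpos samples (median 242798). Levels are in CPM, the count of a gene relative to the total on all genes, on library sizes scaled by TMM, the trimmed mean of M values. A single count was worth between 2.39 and 5.54 CPM in RFPneg and between 3.56 and 5.05 in RFPpos, so that weakly expressed genes rested on few counts. Floors and counting intervals cover counting error only. Reads that the authors' counting placed on no gene made up 32.1% to 37.2% of a library in RFPneg (mean 34.9%) and 38.4% to 48.6% in RFPpos (mean 41.5%), without overlap and highest in the RFPpos sample of mouse 5. Its part in the differences below was not tested. Fold changes are RFPpos over RFPneg, given with the standard error (SE) of the fit. *Cdkn2a*, the gene that encodes p16, had 2, 0, 0, 2 and 4 counts in the RFPneg samples of mice 1 to 5 and 0 in all 5 RFPpos samples, too few for a test, and no direction is drawn from them.

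The populations differed in marker genes of cell types. The 20 microglia markers took 2.68%, 1.82%, 1.93%, 1.72% and 2.51% of the counts in the RFPneg samples of mice 1 to 5, and 4.91%, 4.28%, 4.54%, 4.37% and 3.72% in the RFPpos samples. All 20 were called higher in RFPpos, and *Ctss* had the most counts. Most lists for other cell types were lower in RFPpos. The endothelial list went from 0.506% ± 0.216 to 0.0235% ± 0.0102 (SD, n = 5 mice), with 10 of 10 genes called lower and *Flt1* as the most abundant. The list of monocytes and neutrophils went from 0.425% ± 0.185 to 0.0138% ± 0.00816 (8 of 9 tested genes lower, *S100a8* most abundant), and the oligodendrocyte lineage from 1.03% ± 0.526 to 0.180% ± 0.0985 (10 of 11 lower). The oligodendrocyte difference of −0.847 percentage points was −0.171 without the most abundant gene of the list, which was not called. Mural cells and fibroblasts had 7 of 10 tested genes called lower (*Vtn* most abundant), neurons 4 of 9 (*Meg3*), lymphocytes 3 of 7 (*Igkc*) and choroid plexus and ependyma 0 of 4 (*Ttr*; also 0 at an unadjusted p under 0.05 in the edgeR fit). The choroid plexus and ependyma difference of −0.177 percentage points was −0.0051 without *Ttr*. The astrocyte list, led by *Slc1a2*, had 3 of 10 genes called lower and took between 0.381% and 0.563% of the counts in RFPneg. In the RFPpos samples of mice 1 to 5 it took 0.101%, 0.294%, 0.554%, 0.559% and 0.464%. The list of macrophages of the brain borders, led by *Mrc1*, took 0.0245% ± 0.00195 in RFPneg and 0.0259% ± 0.00765 in RFPpos, with 0 of 9 tested genes called in the edgeR fit and 2 lower at an unadjusted p under 0.05. No marker was at 0 in all 10 samples. Those at 0 in all 5 RFPpos samples included *Chil3*, *Ly6c2* and *Ly6g* of monocytes and neutrophils, *Kcnj8*, *Myh11*, *Tagln*, *Col3a1* and *Lum* of mural cells and fibroblasts, and *Cspg4* and *Pdgfra* of the oligodendrocyte lineage. So were *Cd3d*, *Cd3e*, *Cd3g*, *Cd79a*, *Nkg7* and *Trbc2* of lymphocytes, *Ccdc153* and *Tmem212* of the ependyma and *Clec12a* of the border macrophage list. Their counts in the RFPneg samples together ranged from 2 (*Cd3e* and *Ccdc153*) and 3 (*Cd79a*) to 73 (*Chil3*). For *Cd3e*, *Ccdc153* and *Cd79a* a count of 0 in RFPpos shows no fall. In exact permutation tests within mice (two-sided, 5 pairs), the shares gave p = 0.0625, the smallest value 5 pairs allow, for every list other than the border macrophages (p = 1) and the astrocytes (p = 0.5). In bulk samples like these, fewer cells of a type and less RNA per cell cannot be told apart.

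**Figure D1:**
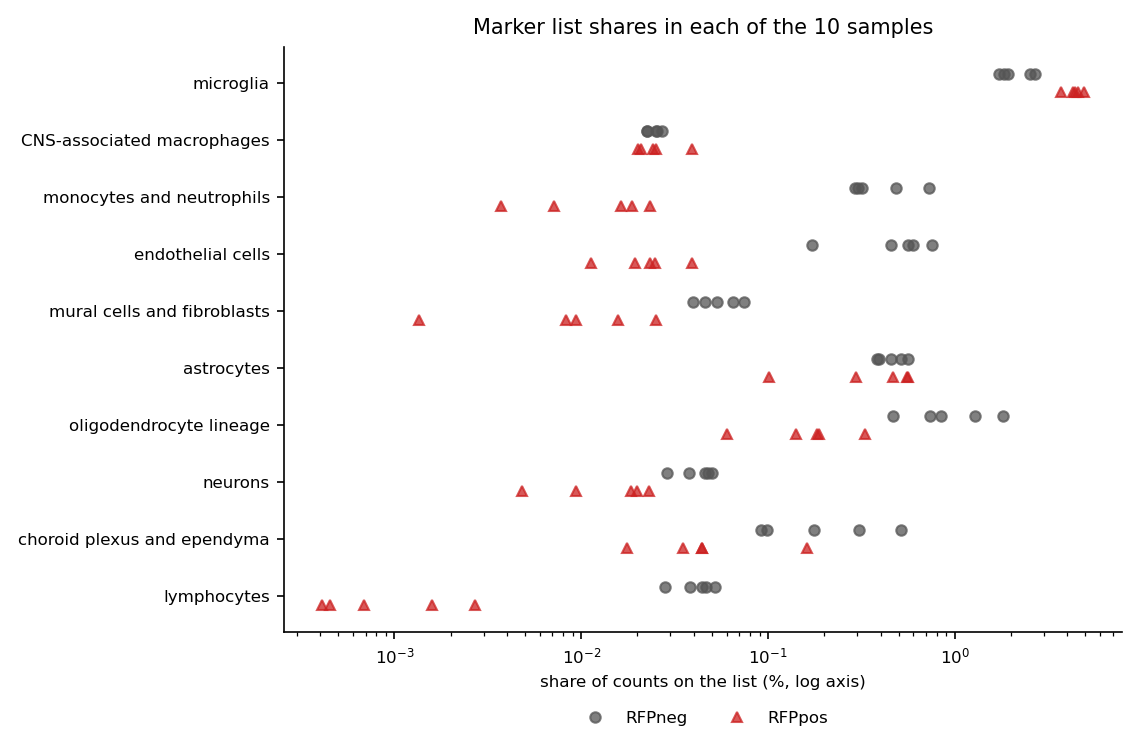
Share of counts on each marker list (%, log axis) in the 5 RFPneg samples (grey circles) and the 5 RFPpos samples (red triangles). The microglia shares do not overlap between the populations, from 1.72% to 2.68% in RFPneg and from 3.72% to 4.91% in RFPpos, while the shares of astrocytes, of border macrophages and of choroid plexus and ependyma do.

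All 10 genes reached the minimum of 10 counts over the 10 samples and were tested among 12270 genes. In RFPpos 5 of them were called higher at an adjusted p under 0.05 (*Mertk*, *Pros1*, *Elmo1*, *Dock2* and *Lrp1*), where 4.33% of all tested genes were. By the edgeR quasi-likelihood test 0 were called lower, against 7.44% of all tested genes. At an unadjusted p under 0.05 there was 1 lower gene, *Scarb1*. The DESeq2 and limma-voom fits called 0 lower, and edgeR's likelihood ratio test called 1. Of all tested genes 4.74%, 8.40% and 9.64% were lower by these methods, in that order. The median log2 fold change of the 10 genes was 0.61, against −0.15 over all tested genes. Since the 10 genes were chosen with earlier results of these data known, these comparisons with all genes are a description. A further fit set the library size of each sample to its summed count on the microglia list, and so asked whether a gene rose or fell against microglia transcripts. This scale moved the median of all genes by −1.10 on the log2 scale, to −1.24. On it, 0 of the 10 genes were called higher (0 also at an unadjusted p under 0.05), where 0.13% of all tested genes were, and 4 were called lower (*Gas6*, *Scarb1*, *Cd36* and *Megf10*), where 44.4% were. The 5 genes that rose on the TMM scale had log2 fold changes between −0.12 and 0.10 on the microglia scale. The microglia share of the counts rose in the same samples, and its part in these differences was not tested beyond this scaling.

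**Figure D2:**
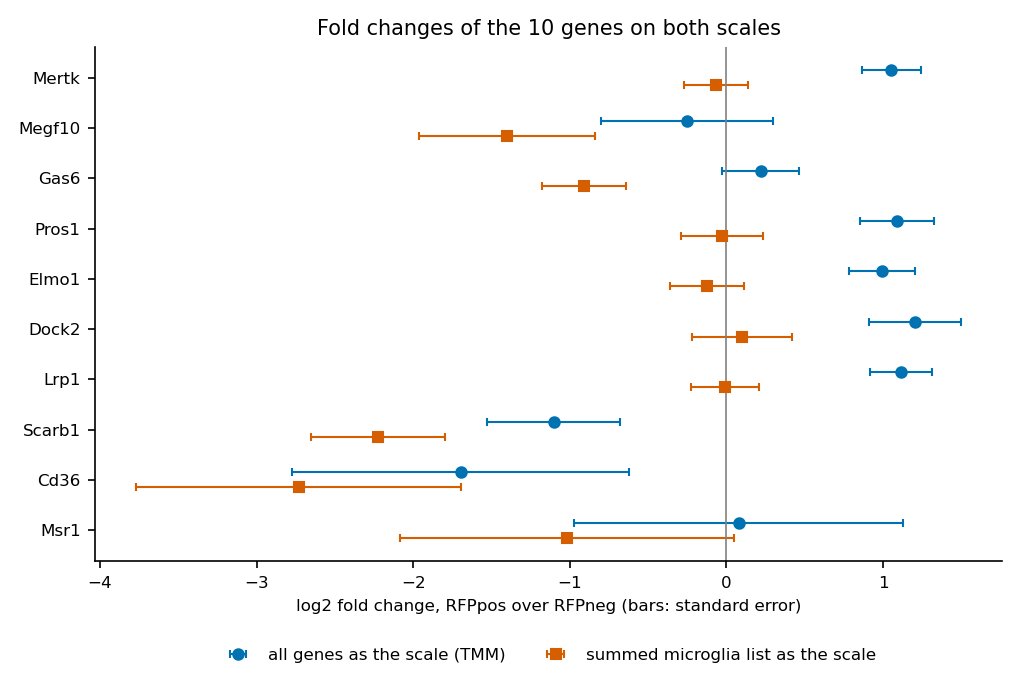
Log2 fold change of each gene, RFPpos over RFPneg, with its standard error, on the TMM scale (blue circles) and with the microglia list as the scale (orange squares; paired fits of 5 mice). *Mertk*, *Pros1*, *Elmo1*, *Dock2* and *Lrp1* lie between 0.99 and 1.21 on the TMM scale and between −0.12 and 0.10 on the microglia scale.

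*Mertk*, a receptor tyrosine kinase of the TAM family (TYRO3, AXL and MERTK) that recognises bridged apoptotic cells, rose in the RFPpos sample of every mouse. Its level was 409.8, 248, 229, 309 and 315 CPM in the RFPneg samples of mice 1 to 5 and 757, 574, 691, 453 and 636 CPM in the RFPpos samples. The populations did not overlap, the RFPneg sample of mouse 1 stood nearest to the RFPpos samples, and mouse 4 had the lowest RFPpos level. The mean went from 302 ± 70.7 to 622 ± 116 CPM (SD, n = 5). This was a log2 fold change of 1.05 (SE 0.19; edgeR quasi-likelihood test, Benjamini-Hochberg adjusted p = 1.12e-06, higher in 5 of 5 mice). Against the microglia list the log2 fold change was −0.07 (adjusted p = 0.798 by the same edgeR test). The gene (ENSMUSG00000014361) lies at chr2:128698956-128802894 on the plus strand of GRCm38.

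Neither of the other TAM receptors was called higher. *Axl*, which binds *Gas6* protein, had 88.6, 81.0, 57.3, 65.0 and 35.0 CPM in the RFPneg samples and 5.05, 64.2, 83.1, 70.4 and 106 CPM in the RFPpos samples. The RFPpos sample of mouse 1 was far below the others, and all RFPneg levels lay within the RFPpos range. *Axl* had a log2 fold change of 0.00 (edgeR adjusted p = 0.999, higher in 3 of 5 mice). *Tyro3*, the TAM receptor best known from neurons, had 37 counts in the RFPneg samples together and 2 in the RFPpos samples. The ratio of its levels, RFPneg over RFPpos, was 16.2 (95% exact counting interval 4.18 to 139), it was lower in RFPpos in 5 of 5 mice, and it was called lower (edgeR adjusted p = 0.00318). Within mice, the change of *Mertk* exceeded that of *Tyro3* by 2.83 ± 0.610 on the log2 scale (SD, 5 of 5 mice; exact permutation p = 0.0625) and that of *Axl* by 1.22 ± 1.51 (4 of 5 mice; exact permutation p = 0.188). Such differences between related genes were computed for 10 pairs with 2 counts added to every value, and no p from 5 mice can be under 0.0625. Where a gene had 0 counts, the size of the difference rests on the added counts. *Tyro3* had 0 in the RFPpos samples of mice 1, 4 and 5. Its mean log2 change was −1.80 in this calculation and −3.70 in the edgeR fit.

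*Megf10*, a receptor with which astrocytes engulf synapses and debris, was not called, and whether its change differed from that of *Mertk* was not tested. It had 16.6, 28.6, 50.2, 28.4 and 25.4 CPM in the RFPneg samples and 0, 39.2, 52.5, 31.3 and 12.7 CPM in the RFPpos samples. Mouse 3 had the highest level in both populations, mouse 1 the lowest in both, and the populations overlapped. The log2 fold change was −0.25 (SE 0.55, 95% interval of the fit −1.33 to 0.83, edgeR adjusted p = 0.875, lower in 2 of 5 mice and higher in 3). It lay between −0.44 (without mouse 2) and −0.021 (without mouse 1) with a mouse left out. Against the microglia list it was −1.40 (edgeR adjusted p = 0.0319), near the median of all tested genes on that scale, −1.24. The call on the microglia scale was lost without mouse 1 (edgeR adjusted p = 0.0838), mouse 3 (0.0878) or mouse 4 (0.0641). The RFPpos sample of mouse 1, where *Megf10* had 0 counts, also had the lowest astrocyte share, 0.101%, and the RFPpos sample of mouse 5, with 12.7 CPM, had an astrocyte share of 0.464%. The part of astrocytes in the *Megf10* level was not tested. *Gulp1*, an adaptor that binds the tail of engulfment receptors, had 38 counts in RFPneg and 9 in RFPpos (log2 fold change −2.19, edgeR adjusted p = 0.0562, lower in 4 of 5 mice), and the related *Megf11* had 4 and 5 counts and was not tested.

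**Figure D3:**
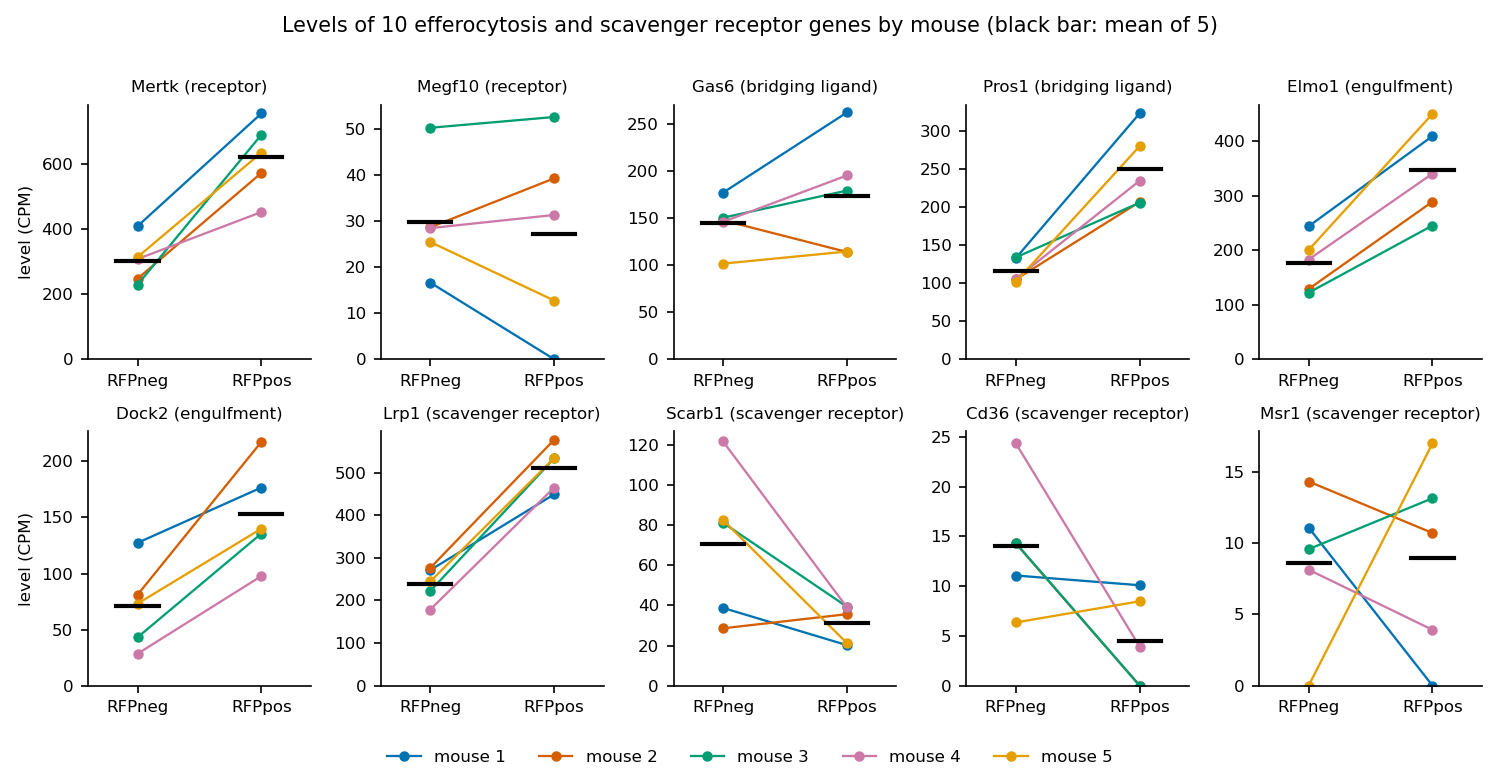
Level (CPM) of each of the 10 genes in the RFPneg and RFPpos samples of the 5 mice, with a line joining the samples of a mouse and a black bar at the mean. *Mertk*, *Pros1*, *Elmo1*, *Dock2* and *Lrp1* are higher in RFPpos in 5 of 5 mice, while *Scarb1* is lower in 4 of 5 and *Gas6* higher in 4 of 5.

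The bridging ligands had different patterns. *Pros1* encodes protein S, a plasma anticoagulant that also bridges phosphatidylserine to TAM receptors. It had 133, 105, 134, 106 and 102 CPM in the RFPneg samples and 323, 207, 206, 235 and 280.0 CPM in the RFPpos samples. The populations did not overlap, the RFPneg samples lay within a narrow range, and mice 1 and 5 had the highest RFPpos levels. The mean went from 116 ± 16.1 to 249.99 ± 50.8 CPM (SD, n = 5). The log2 fold change was 1.09 (SE 0.24, edgeR adjusted p = 1.03e-04, higher in 5 of 5 mice), and the log2 fold change against the microglia list was −0.03 (edgeR adjusted p = 0.938). The gene (ENSMUSG00000022912) lies at chr16:62854307-62929346 on the plus strand.

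*Gas6*, the ligand that activates all TAM receptors, had 177, 148, 151, 146 and 102 CPM in the RFPneg samples and 262, 114, 179, 195 and 115 CPM in the RFPpos samples. The populations overlapped, mouse 1 was highest in both, and mouse 2 was lower in RFPpos. Its log2 fold change was 0.22 (SE 0.25, 95% interval of the fit −0.26 to 0.70, edgeR adjusted p = 0.708, higher in 4 of 5 mice). Against the microglia list it was called lower, with a log2 fold change of −0.91 (edgeR adjusted p = 0.00298), where the median of all tested genes was −1.24. Without mouse 2 this fold change of *Gas6* was −0.72 and not called (edgeR adjusted p = 0.0531). *Gas6* (ENSMUSG00000031451, chr8:13465374-13494490, minus strand) shares 34 exonic bases with *Tmem255b* on the other strand, which had 5 counts in all samples together. *Mfge8*, which bridges phosphatidylserine to integrins, was 172, 209.7, 198, 138 and 197 CPM in the RFPneg samples and 25.2, 74.8, 101, 113 and 93.3 CPM in the RFPpos samples. It fell in every mouse with no overlap, by 1.18 on the log2 scale (SE 0.27, edgeR adjusted p = 2.63e-04), and its lowest value was in the RFPpos sample of mouse 1. Within mice, the change of *Pros1* exceeded that of *Gas6* by 0.85 ± 0.397 on the log2 scale and that of *Mfge8* by 2.24 ± 0.883, each in 5 of 5 mice (SD; exact permutation p = 0.0625 for each).

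Of the engulfment genes, *Elmo1* encodes the scaffold that binds DOCK proteins and brings them to the membrane. It had 244, 129, 122, 183 and 200.2 CPM in the RFPneg samples and 409, 289, 245, 340.1 and 449.7 CPM in the RFPpos samples. The populations did not overlap, although the RFPneg sample of mouse 1 and the RFPpos sample of mouse 3 were nearly level, and mice 2 and 3 were the lowest in both populations. The log2 fold change was 0.99 (SE 0.21, edgeR adjusted p = 8.01e-05, higher in 5 of 5 mice), and −0.12 against the microglia list (edgeR adjusted p = 0.681). Its relative *Elmo2*, found in many tissues, had a log2 fold change of 0.21 (edgeR adjusted p = 0.816, higher in 4 of 5 mice). The change of *Elmo1* exceeded that of *Elmo2* in 5 of 5 mice, by 0.80 ± 0.174 on the log2 scale (SD; exact permutation p = 0.0625).

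*Dock2* encodes the RAC exchange factor of blood and immune cells. It had 127, 81.0, 43.0, 28.4 and 73.1 CPM in the RFPneg samples and 177, 217, 136, 97.7 and 140.0 CPM in the RFPpos samples. The populations overlapped through mouse 1, whose RFPneg level was above the RFPpos level of mouse 4, and mouse 4 was the lowest in both. The RFPneg sample of mouse 1 also had the highest microglia share of the RFPneg samples, 2.68%. The log2 fold change was 1.21 (SE 0.29, edgeR adjusted p = 6.75e-04, higher in 5 of 5 mice), and 0.10 against the microglia list (edgeR adjusted p = 0.803). *Dock1*, the broadly expressed exchange factor of the same family, had 62 counts in RFPneg and 24 in RFPpos, at a log2 fold change of −1.23 (SE 0.54, edgeR adjusted p = 0.139, lower in 4 of 5 mice). The difference between *Dock2* and *Dock1* was 2.19 ± 0.741 on the log2 scale in the same direction in 5 of 5 mice (SD; exact permutation p = 0.0625). *Elmo1* (ENSMUSG00000041112) lies at chr13:20090596-20608353 on the plus strand and *Dock2* (ENSMUSG00000020143) at chr11:34226815-34783892 on the minus strand. Each has a noncoding gene on the other strand of its exons, *Gm32036* over 403 bases and *4930403D09Rik* over 460 bases. The latter had 0 counts, and *Gm32036* was not measured here.

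The promoters of the genes that rose together are shown as RefSeq gives them on GRCm38.p6, from 250 bases before to 50 after the start. Of the 10 genes, 7 had an entry, in 8 windows. Capitals mark the PU.1 motif AGAGGAAGT and its shorter form GAGGAA, which the longer one contains, on either strand. PU.1 is the factor that sets up the myeloid lineage.
*Mertk*, chr2:128698665-128698964, plus strand: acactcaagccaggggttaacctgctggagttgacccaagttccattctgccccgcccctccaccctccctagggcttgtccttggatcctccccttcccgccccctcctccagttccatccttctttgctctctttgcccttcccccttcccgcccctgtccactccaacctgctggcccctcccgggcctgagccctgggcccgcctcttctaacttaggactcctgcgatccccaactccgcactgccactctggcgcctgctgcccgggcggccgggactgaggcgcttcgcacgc
*Pros1*, chr16:62854057-62854356, plus strand: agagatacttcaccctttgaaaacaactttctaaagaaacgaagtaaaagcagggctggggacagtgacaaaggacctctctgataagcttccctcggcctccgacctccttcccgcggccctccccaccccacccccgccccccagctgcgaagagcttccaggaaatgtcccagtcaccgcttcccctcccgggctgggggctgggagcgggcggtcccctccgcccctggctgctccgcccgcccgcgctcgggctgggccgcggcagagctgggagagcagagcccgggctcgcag
*Elmo1*, chr13:20090257-20090556, plus strand: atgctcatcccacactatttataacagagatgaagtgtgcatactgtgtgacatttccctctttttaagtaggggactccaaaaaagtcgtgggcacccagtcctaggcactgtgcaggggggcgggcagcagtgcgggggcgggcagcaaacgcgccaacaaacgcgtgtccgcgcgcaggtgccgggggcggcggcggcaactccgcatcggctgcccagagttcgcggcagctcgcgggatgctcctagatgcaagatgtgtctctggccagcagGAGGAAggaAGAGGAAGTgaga
*Dock2*, chr11:34783856-34784155, minus strand: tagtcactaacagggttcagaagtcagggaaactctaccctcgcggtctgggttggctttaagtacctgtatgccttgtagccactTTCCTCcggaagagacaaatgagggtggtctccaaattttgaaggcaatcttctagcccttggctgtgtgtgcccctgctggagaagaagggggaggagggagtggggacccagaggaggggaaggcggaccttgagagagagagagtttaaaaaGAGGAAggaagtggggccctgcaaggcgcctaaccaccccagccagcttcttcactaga
*Lrp1*, chr10:127621099-127621398, minus strand: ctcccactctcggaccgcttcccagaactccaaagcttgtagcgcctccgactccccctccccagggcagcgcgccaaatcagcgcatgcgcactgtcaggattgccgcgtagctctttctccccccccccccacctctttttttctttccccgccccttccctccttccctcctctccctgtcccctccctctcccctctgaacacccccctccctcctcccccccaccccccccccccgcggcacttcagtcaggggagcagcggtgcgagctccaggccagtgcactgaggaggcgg
The longer PU.1 motif stood in the *Elmo1* window at base 288 of 300, and in 1.00% of the 32851 promoters of the table. The shorter form stood at bases 279 and 289 of the *Elmo1* window and, in *Dock2*, at base 87 on the opposite strand and base 242, while 28.3% of all promoters hold it. Neither form was in the windows of *Mertk*, *Pros1* or *Lrp1*, nor in those of *Gas6*, *Cd36* or the other *Elmo1* start. The *Cd36* window held the MAF motif TGCTGA (19.5% of all promoters) and the LXR motif AGGTCA (16.3%), and the AP-1 motif TGANTCA (7.81%) was in none of the 8 windows. Both strands were searched, and a match describes letters only.

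Among the scavenger receptors, *Lrp1*, a large receptor of the LDL receptor family that also takes up apoptotic cells through calreticulin, rose in every mouse. It had 271, 276, 222, 179 and 245 CPM in the RFPneg samples and 449, 577, 534, 465 and 535 CPM in the RFPpos samples. The populations did not overlap and were separated by a wide gap, with mouse 2 highest in both. The mean went from 239 ± 40.0 to 512 ± 53.4 CPM (SD, n = 5). On the log2 scale the fold change was 1.11 (SE 0.20, edgeR adjusted p = 6.60e-07, higher in 5 of 5 mice), and the log2 fold change against the microglia list was −0.01 (edgeR adjusted p = 0.973). *Lrp1* (ENSMUSG00000040249) lies at chr10:127538161-127621148 on the minus strand. *Lrpap1*, its chaperone, had a log2 fold change of 0.84 (SE 0.41, edgeR adjusted p = 0.201, higher in 4 of 5 mice), and the change of *Lrp1* exceeded its change by 0.33 ± 0.861 on the log2 scale (SD; exact permutation p = 0.562, 3 of 5 mice).

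*Scarb1* encodes SR-BI, the receptor for high-density lipoprotein, and had a lower mean level in RFPpos. It had 38.8, 28.6, 81.2, 122 and 82.6 CPM in the RFPneg samples and 20.2, 35.6, 39.4, 39.1 and 21.2 CPM in the RFPpos samples. Mice 3, 4 and 5 had high RFPneg levels, mice 1 and 2 had RFPneg levels within the RFPpos range, and mouse 2 was higher in RFPpos. The log2 fold change was −1.10 (SE 0.42) and not called (edgeR quasi-likelihood adjusted p = 0.0707, lower in 4 of 5 mice). It was called by edgeR's likelihood ratio test (adjusted p = 0.0466), without the pairing by mouse (0.0285) and without mouse 2 (0.0354), and over the alternatives other than the microglia scale the adjusted p ranged from 0.0285 to 0.319. Against the microglia list *Scarb1* was lower, with a log2 fold change of −2.22 (edgeR adjusted p = 2.08e-06). The endothelial list, whose cells express *Scarb1*, took 0.172%, 0.560%, 0.594%, 0.753% and 0.453% of the counts in the RFPneg samples and at most 0.0391% in RFPpos. The RFPneg sample of mouse 4 was highest in both *Scarb1* and the endothelial share, while that of mouse 2 had the lowest *Scarb1* and an endothelial share near the middle. The part of endothelial cells in the *Scarb1* difference was not tested. *Scarb2*, a lysosomal membrane protein of the same family, rose by contrast, with a log2 fold change of 0.70 (edgeR adjusted p = 0.0113, higher in 5 of 5 mice). Its change exceeded that of *Scarb1* by 1.57 ± 0.779 on the log2 scale (SD, 5 of 5 mice; exact permutation p = 0.0625).

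*Cd36*, a receptor for oxidised lipoproteins and fatty acids, and *Msr1*, the class A macrophage scavenger receptor, were near the limit of detection. *Cd36* had 2, 3, 6, 6 and 2 counts in the RFPneg samples and 2, 0, 0, 1 and 2 in the RFPpos samples. Its ratio of levels, RFPneg over RFPpos, was 3.33 (95% exact counting interval 1.20 to 11.4), the log2 fold change of −1.70 was not called (edgeR adjusted p = 0.387, lower in 4 of 5 mice), and mice 1 and 5 had the same counts in both populations. Against the microglia list it was called lower (log2 fold change −2.73, edgeR adjusted p = 0.0234), but not without mouse 2 (0.0983), mouse 3 (0.114) or mouse 4 (0.132). *Msr1* had 11 counts in each population, between 0 and 4 in a sample, and a log2 fold change of 0.08 (SE 1.05, edgeR adjusted p = 0.980), whose sign differed between alternatives. No difference in *Msr1* was detected, and the 95% interval of the fit, −1.98 to 2.14, was wide.

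The same roles were followed in longer lists of related genes, also chosen with earlier results of these data known. Of 18 tested receptors and ligands for apoptotic cells 9 were called higher (50%) and 2 lower (11.1%) in RFPpos, where 4.33% of all tested genes were higher and 7.44% lower. The median log2 fold change of the list was 0.73, against −0.15 over all tested genes. *C1qa* and *C1qb*, the complement chains that coat dying cells, had the smallest p-values of those higher, with log2 fold changes of 1.30 and 1.12 (edgeR adjusted p = 1.52e-14 and 5.53e-10, 5 of 5 mice each), and the 2 lower were *Mfge8* and *Tyro3*. This list shares 4 genes with the microglia list (*C1qa*, *C1qb*, *C1qc* and *Trem2*), all of them called higher, and 1 with the border macrophage list (*Stab1*). Of 21 tested genes of the engulfment machinery 3 were higher (14.3%, against 4.33% of all tested genes) and 2 lower (9.52%, against 7.44%), with a median of 0.09. The lower share was thus near that of all genes. *Wasf2*, an actin regulator, and *Vav1*, an exchange factor of blood cells, rose by 0.86 and 1.62 on the log2 scale (edgeR adjusted p = 5.26e-04 and 6.19e-04, 5 of 5 mice each). The genes called lower were another exchange factor of the VAV family and an adhesion scaffold. *Vav3* had 24 counts in the RFPneg samples and 0 in the RFPpos samples, at least 7.0-fold lower against a floor of 3 counts over the group, and *Bcar1* had 29 and 3 counts, a ratio of 8.46 (95% exact counting interval 2.62 to 43.4; edgeR adjusted p = 0.0127 for *Vav3* and 0.0371 for *Bcar1*, lower in 5 of 5 mice). With *Vav3* at its bound the median of the list was also 0.09.

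Of 19 other scavenger receptor genes tested 2 were called higher (10.5%, against 4.33% of all tested genes) and 1 lower (5.26%, against 7.44%), with a median of 0.50. *Cd68*, a lysosomal glycoprotein of phagocytes, went from 164 ± 36.8 to 381 ± 45.6 CPM (SD, n = 5; log2 fold change 1.24, edgeR adjusted p = 2.62e-07, higher in 5 of 5 mice), *Scarb2* was the other higher gene, and *Vldlr*, a lipoprotein receptor, had 38 counts in RFPneg and 4 in RFPpos (edgeR adjusted p = 0.00707, lower in 5 of 5 mice). The list shares *Mrc1* and *Cd163* with the border macrophage markers. Of 21 tested genes of cargo digestion and lipid efflux 6 were higher (28.6%) and 1 lower (4.76%), against the same shares of all genes, with a median of 0.47. *Npc2* and *Abca1*, which move cholesterol out of lysosomes and out of the cell, rose by 0.83 and 0.89 on the log2 scale (edgeR adjusted p = 3.58e-04 and 0.00109, 5 of 5 mice each). *Slc2a1*, the glucose transporter induced during clearance and also a marker on the endothelial list, fell by 3.62 (edgeR adjusted p = 9.86e-47, lower in 5 of 5 mice). On the microglia scale, 0 genes of the 4 lists were called higher (0 also at an unadjusted p under 0.05 in edgeR), and 4 of 18, 12 of 21, 7 of 19 and 7 of 21 were called lower, in the order given. Of all tested genes 0.13% were higher and 44.4% lower on this scale. The genes that the list of receptors and ligands shares with the microglia list are part of the scale itself. Their results on it were thus partly set in advance.

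**Figure D4:**
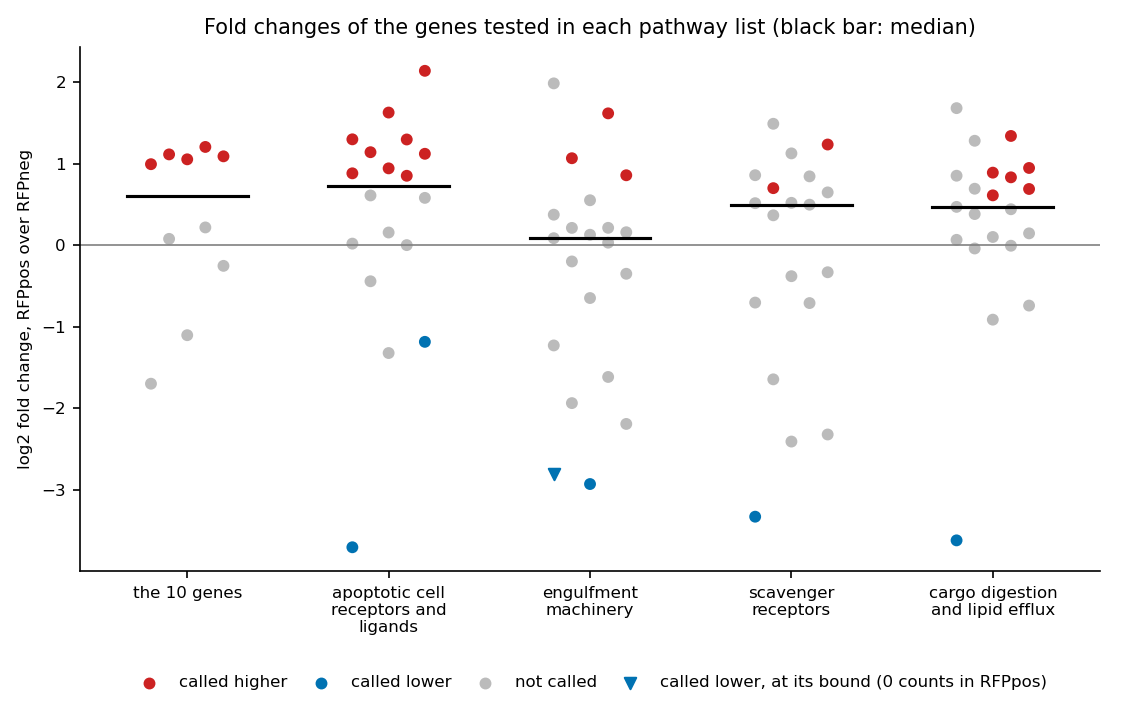
Log2 fold change, RFPpos over RFPneg, of each tested gene among the 10 genes and in the 4 longer lists, on the TMM scale, with the median as a black bar and calls at an adjusted p under 0.05 in colour. *Vav3*, at 0 counts in RFPpos, is drawn as a triangle at its bound, and the medians run from 0.09 for the engulfment machinery to 0.73 for receptors and ligands of apoptotic cells.

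The genes whose levels over the 10 samples were most like those of each member were found by Pearson's r of log2 CPM among 6870 genes with a mean of at least 20 CPM. These samples share the difference between populations, so that the values are a description. For *Mertk* they were *F11r* (0.983), *Plxdc2* (0.974) and *Cmtm6* (0.973), and for *Lrp1* they were *Psap* (0.9751), *Pla2g15* (0.967) and *Unc93b1* (0.966). *Pros1* had *Tfe3* (0.957) and *Btbd9* among its nearest, *Elmo1* was most like *Gm45223* (0.987), *Rtn4rl1* and *Mef2a*, and *Dock2* most like *Pde3b* (0.947), *Rgs2* and *Wbp4*. Genes not called higher had other neighbours. They were *Usp12* (0.888), *Rab20* and *Mapk3* for *Gas6*, *Hist1h1c* (0.945), *Aqp11* and *Tspan9* for *Scarb1*, and *Mgst1* (0.962), *Ddah1* and *Gria1* for *Megf10*.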

How the data were processed

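Bulk RNA of sorted brain cells was measured in 10 samples from 5 mice, and the single-cell samples were left out. The authors made 3′ tag libraries (Lexogen QuantSeq FWD), ran Lexogen's UMI pipeline on the reads and deposited raw counts per gene. The submitters' processing notes name mm10 beside Cell Ranger, which the methods use, with that genome, for the single-cell reads; no build is named there for the bulk counts, and whether the counting used strand is not given in the sources used here. Reads on no gene (32.1% to 37.2% in RFPneg, 38.4% to 48.6% in RFPpos) and ambiguous reads stayed out of the library sizes. Symbols were found for 47224 of 47643 identifiers in GENCODE M21, which also gave the coordinates.

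Genes with at least 10 counts over all samples were fitted in edgeR 4.0.16 (R 4.3.3) with TMM scaling, the mouse as a block and the quasi-likelihood test, and Benjamini-Hochberg adjusted p-values under 0.05 were called. The pairing comes from the labels and the methods, which give both populations from the same mice; the deviations from the population means correlated within mice at 0.148, −0.000961, 0.0886, 0.00401 and 0.0244. Standard errors are the log2 fold change over the root of the F statistic. For single values, labels were permuted exactly within mice (32 assignments). On simulated counts for 12270 genes, 54 of 100 genes changed by a log2 fold of 1 and 97 of 100 changed by 2 were called, as were 8 of 11659 unchanged genes. The changed genes were drawn from those with at least 100 counts over all samples, more than *Cd36*, *Msr1* and *Megf10* had. All genes had the same dispersion, as many were raised as lowered, and no shift in cell types was simulated. Alternatives were other scalings, filters and tests (DESeq2 1.42.0, limma 3.58.1), no block, a fold minimum and each mouse left out.

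The members and lists were chosen with earlier results of these data known. Genes named are all members, from each longer list the 2 called genes of smallest p in each direction and the stated relatives of members, from each marker list its most abundant gene, and the 3 genes most like each member with a mean of at least 20 CPM. *Cdkn2a*, the markers at 0 in RFPpos and the genes that a longer list shares with a marker list are named besides; the markers at 0 were picked out after their values were seen. Some genes that this rule or the marker lists name are not reported here. Gene filtering by DAFS, as in the methods, was not repeated.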

Additional observations from a re-analysis of the deposited data

Results flagged for a closer look

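The levels of the 10 genes and the shares of the gene lists were looked at in each population, which gave 50 groups of 5 samples. In 4 of them 1 sample stood far from the others, where chance alone sets apart about 1 in 20 groups. None of the 4 was the level of a single member. The list of receptors and ligands for apoptotic cells took 0.689% of the counts in the RFPpos sample of mouse 5, against 0.894% to 0.9496% in the other RFPpos samples. The engulfment list took 0.169% in the RFPneg sample of mouse 1 (others 0.148% to 0.153%). The border macrophage list took 0.0390% in the RFPpos sample of mouse 2 (others 0.0202% to 0.0251%), and the choroid plexus and ependyma list took 0.162% in the RFPpos sample of mouse 4 (others 0.0176% to 0.0445%). The causes were not tested.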

How the results depend on the processing

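The number of members called higher was 5 under every alternative run, other than a log2 fold minimum of 1 (4) and the microglia list as the scale (0). Where 5 members were higher, so were between 2.28% (DESeq2) and 10.2% (edgeR's own filter) of all tested genes. The share was 2.75% with the fold minimum and 0.13% on the microglia scale. On the microglia scale 4 members were called lower, and the log2 fold changes turned to −0.067 for *Mertk*, −0.91 for *Gas6*, −0.027 for *Pros1*, −0.12 for *Elmo1*, −0.0094 for *Lrp1* and −1.02 for *Msr1*; this scale lowers the median of all genes by construction. *Msr1* also turned to −0.11 in DESeq2, −0.06 without mouse 3 and −0.65 without mouse 5, and lay between −0.65 and 0.56 with a mouse left out. Members called lower were 1 (*Scarb1*) by the likelihood ratio test and without the replicate block, and 0 to 1 with a mouse left out. Of all tested genes 9.64% were lower by the likelihood ratio test and 8.67% without the block. With a mouse left out 5.66% to 6.97% of them were lower. Without the replicate block, that is without pairing by mouse, 1652 genes were called in place of 1444, and no other member's call changed. The number of genes called was 910 with edgeR's own filter, where fewer genes were tested (4210), and 862 with DESeq2. Of the called genes 47.4% were higher with edgeR's filter, against 36.8% with the minimum of 10 counts. On the microglia scale 0.293% of the called genes were higher with the minimum of 10 counts and 0.481% with edgeR's filter. On the microglia scale that filter left 2910 genes called in place of 5463 and 1 member called lower in place of 4, since *Scarb1*, *Cd36*, *Megf10* and *Msr1* were then not tested, and 2 to 4 members were called lower with a mouse left out. Of all tested genes 68.8% were lower on this scale with that filter, against 44.4% with the minimum of 10 counts. With a mouse left out the share was 34.9% to 47.8%. The border macrophage share difference of 0.00134 percentage points turned to −0.00136 without *Mrc1*, and lay between −0.00183 and 0.00226 with a mouse left out. Where no other reason is named, the cause was not tested. Depth limits *Cd36*, *Msr1* and *Megf10* most.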
